A study of Mus musculus with 8 samples.

Results

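Autophagy encloses worn cytoplasm and organelles in a double membrane and delivers them to the lysosome, an acid compartment whose hydrolases break the cargo down. A kinase complex starts the process, a ubiquitin-like conjugation system attaches small proteins to the growing membrane, and the vacuolar proton pump (V-ATPase) keeps the lysosome acid enough for cathepsins and glycosidases to work. In blood-forming stem cells, autophagy is known for clearing mitochondria and for keeping the cells quiescent, and the MiT/TFE transcription factors are known for switching on lysosomal genes.

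The genes described here are 38 genes of this system, chosen by name for their roles, with earlier results of these data known. They comprise 5 for the start of autophagy, 5 for conjugation and 6 for proteins of the autophagosome and its cargo. The rest are 3 MiT/TFE factors, 4 lysosomal membrane proteins, 8 cathepsins, 2 glycosidases and 5 V-ATPase subunits. The 38 genes stand among 46113 gene IDs in the files, of which 21991 have exons and 12751 had enough reads to be tested. All 38 were found and all 38 were tested, so no filter removed any. RNA was sequenced in bulk from 2 sorted fractions of the bone marrow of C57BL/6 mice of 8 to 10 weeks, with no genetic change or treatment named in the labels. The haematopoietic stem cell fraction (HSC) was sorted as CD150+ CD34- Sca1+ c-Kit+ Lineage-, and the haematopoietic progenitor fraction (HPC) as CD150+ CD34+ Sca1+ c-Kit+ Lineage-. Each had 4 libraries. By their labels the fractions differ in CD34 alone.

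The libraries held 16291733 to 19070313 exon reads in HSC and 18223082 to 20564901 in HPC, and no member had fewer than 75 exon reads in any library. Cd34, the marker that separates the sorts, stood at 120 ± 15.4 CPM (exon read counts scaled to a common library size with TMM factors; mean ± SD, n = 4) in HSC and 1276 ± 55.9 in HPC, in the direction of the labels. Slamf1, which encodes CD150, stood at 37.6 ± 6.02 CPM in HSC and 3.14 ± 0.736 in HPC (edgeR adjusted p = 6.6e-09), although both fractions are labelled CD150+. Ly6a, which encodes Sca1, stood at 131 ± 15.99 and 72.1 ± 8.02 (edgeR adjusted p = 3.0e-05), and Kit, which encodes c-Kit, at 924 ± 185 and 746 ± 66.4 (edgeR adjusted p = 0.080). The fractions thus differed in the RNA of 2 further sort markers besides Cd34, and surface protein is not measured here. The labels do not say whether the libraries of a fraction were made from different animals or sorts. The p-values therefore reflect the scatter among these libraries, which could be technical only. Fewer cells of a type and less RNA per cell cannot be told apart in bulk samples such as these.

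Of the 38 genes, 10 were higher in HSC, 2 were lower and 26 did not pass the test (edgeR's quasi-likelihood test, Benjamini-Hochberg adjustment over all genes tested, threshold 0.05). Among all genes tested 37.1% were called, 19.6% higher and 17.6% lower, so the members' share of calls, 31.6%, lay near the background. The 10 higher genes were Ctsl, Map1lc3a, Atp6v0a1, Ctsh, Gabarapl1, Mitf, Wipi1, Map1lc3b, Gaa and Ctsb, and the 2 lower genes were Ctss and Cd68. The median log2 change, HSC over HPC, was 0.16 over the members and 0.00 over all genes tested, and 27 of the 38 changes were positive. For 16 members the 4 HSC values and the 4 HPC values did not overlap, against 36.7% of all genes tested. Of the 12 called genes, 5 differed by 2-fold or more, and a test against a fold of 1.5 kept 4 higher and 2 lower. With upper quartile scaling in place of TMM, 16 members were higher and 2 lower. That scaling also moved the median log2 change of all genes tested from 0.00 to 0.08, and the share of all calls that were higher from 52.7% to 61.7%.

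**Figure D1:**
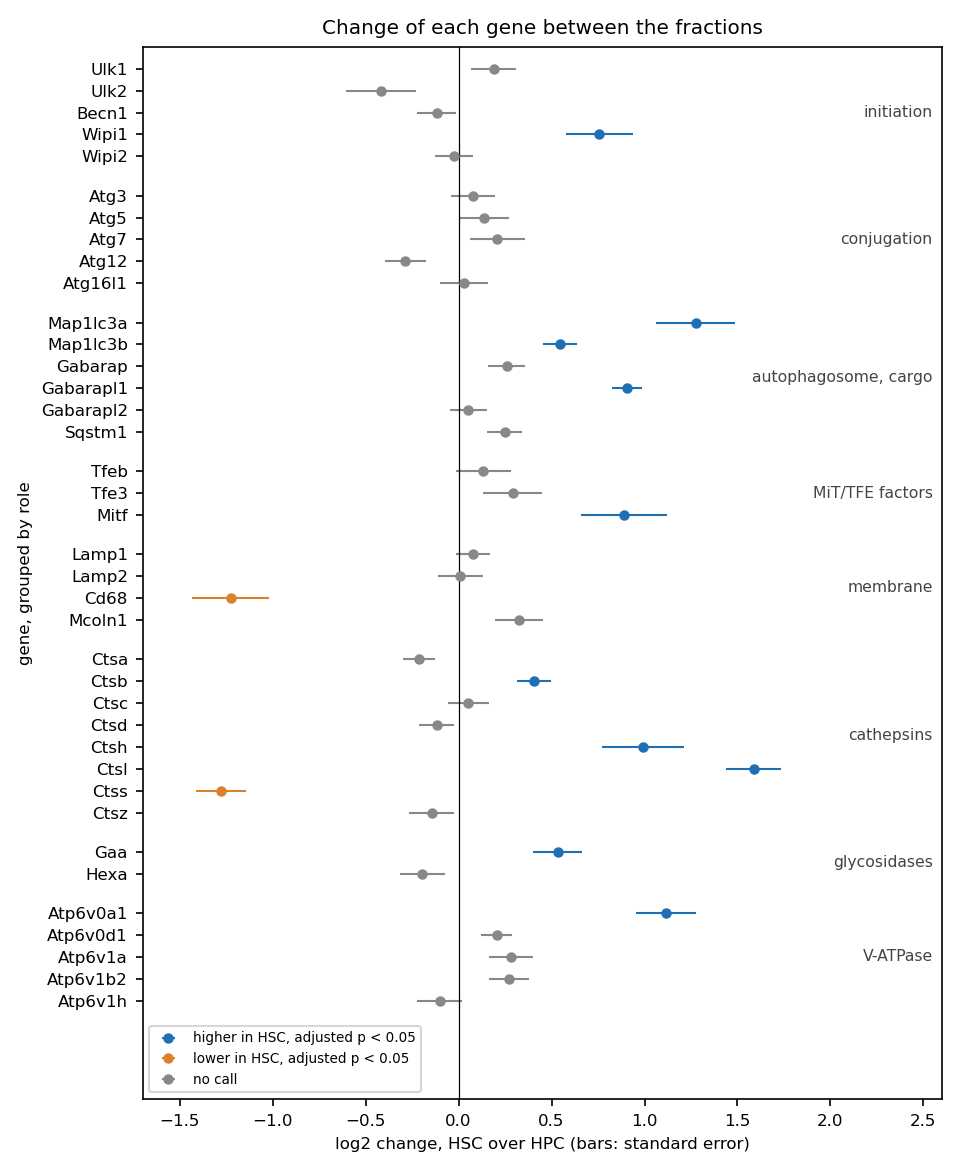
Log2 change, HSC over HPC (horizontal axis), of each of the 38 genes, grouped by role on the vertical axis. Points are the edgeR estimates, horizontal lines their standard errors and colour the call, and the changes run from -1.28 for Ctss to 1.59 for Ctsl, with grey uncalled genes between -0.42 and 0.32.

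Counted per length, the most abundant transcripts of the set were nearly the same in both fractions. On the RPKM scale (reads per kilobase of exon, scaled by TMM library size), Map1lc3b led with 319 in HSC and 219 in HPC. In HSC it was followed by Gabarap at 165, Ctsd at 152, Gabarapl1 at 138 and Lamp1 at 111. In HPC the next were Ctsd at 165, Gabarap at 138, Lamp1 at 105 and Gabarapl2 at 90.0. Mitf was the least abundant in both, at 1.5 RPKM in HSC and 0.808 in HPC.

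**Figure D2:**
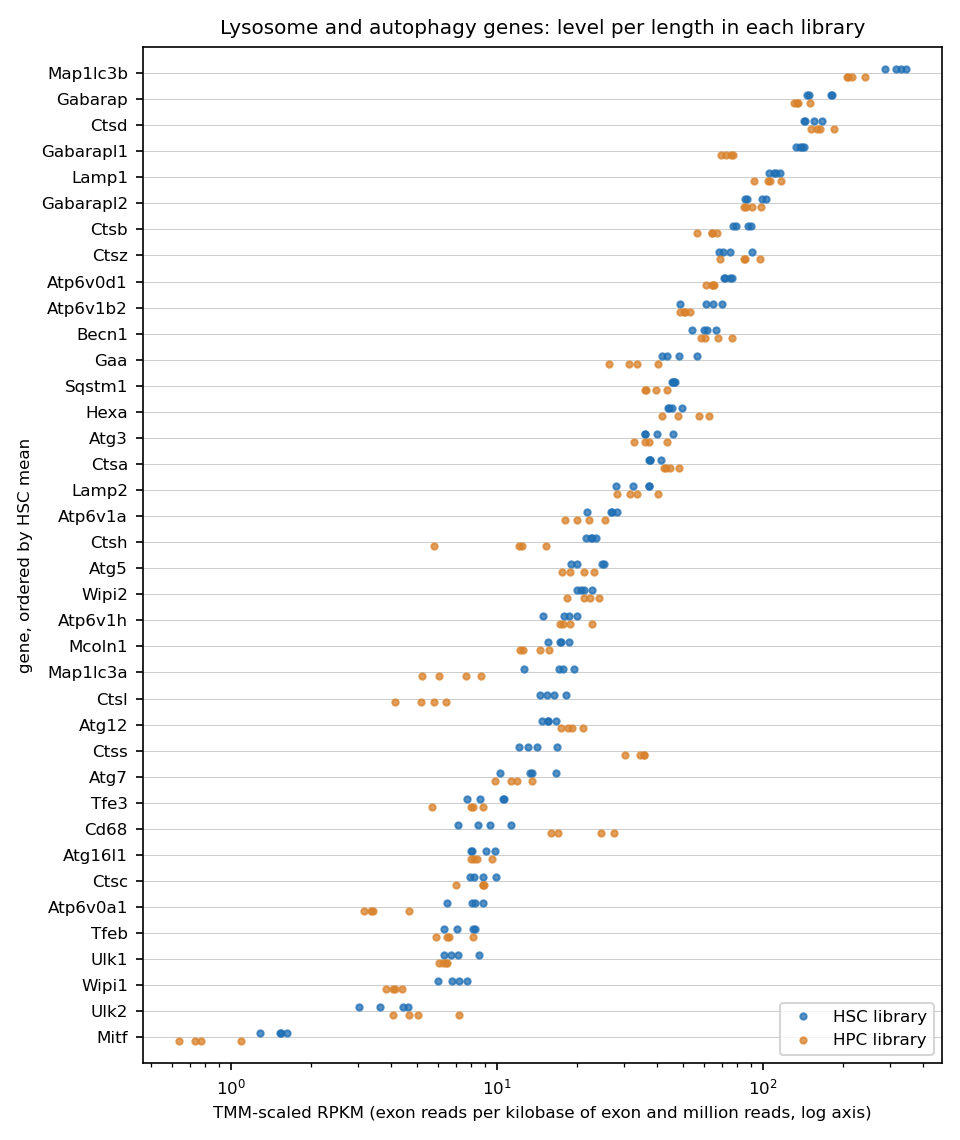
Level of each of the 38 genes per exon length (TMM-scaled RPKM, log axis), with genes ordered by their HSC mean and 1 point for each of the 4 HSC and 4 HPC libraries. Map1lc3b is highest and Mitf lowest in both fractions, and Ctss and Cd68 have their HPC points to the right of their HSC points.

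Among the 5 genes that start autophagy, Wipi1 alone was called. Wipi1 binds the phosphoinositide of the forming membrane (chromosome 11, 109573521 to 109611389, mm10, as are all positions from the files). It read 14.1, 13.1, 10.9 and 12.3 CPM in HSC libraries 1 to 4 and 7.51, 6.96, 7.97 and 7.40 CPM in HPC libraries 1 to 4. The lowest HSC library lay above the highest HPC library. The log2 change was 0.76 ± 0.18 (SE, edgeR adjusted p = 0.0040), 1.69-fold.

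The most abundant gene of the start group, Becn1, a subunit of the lipid kinase complex that marks the membrane, had 123, 112, 126 and 138 CPM in HSC and 124, 139, 119.9 and 158 in HPC. The groups overlapped, and the log2 difference was -0.12 ± 0.11 (SE, edgeR adjusted p = 0.42). Ulk1 and Ulk2 encode the kinases that start the process. Ulk1 stood at 41.3 ± 5.61 CPM (SD, n = 4) in HSC and 36.3 ± 1.13 in HPC, and Ulk2 at 24.1 ± 4.52 and 32.2 ± 8.35. Neither passed the test (edgeR adjusted p = 0.26 and 0.097). The 95% interval of Ulk2, -0.82 to -0.02 on the log2 scale, had the lowest bound of the 26 uncalled genes. On gene reads its log2 change was 0.0036, on intron reads it was 0.22, and without HPC library 4 it was -0.53 and called (edgeR adjusted p = 0.043). Wipi2, a relative of Wipi1, had a log2 change of -0.02 ± 0.10 (SE).

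None of the 5 conjugation genes was called in edgeR, and 1 of them, Atg12, had an unadjusted p under 0.05. Atg3, an E2-like enzyme, was the most abundant of them. It had 82.1, 74.0, 73.9 and 94.2 CPM in HSC and 76.7, 67.1, 74.2 and 89.3 in HPC, and the groups covered nearly the same range. Its log2 change was 0.08 ± 0.12 (SE, edgeR adjusted p = 0.65). Atg12, the ubiquitin-like protein joined to Atg5, had 40.5 to 45.7 CPM in HSC and 47.8 to 58.1 in HPC. The HSC libraries all lay below the HPC libraries, but the adjusted p was 0.053 in edgeR, with a log2 change of -0.29 ± 0.11 (SE). DESeq2 called it, at an adjusted p of 0.035, and voom called none of the 5. Atg5, Atg7 (the E1-like enzyme) and Atg16l1 had log2 changes of 0.14, 0.21 and 0.03.

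Of the 6 genes for the autophagosome and its cargo, Gabarapl1, Map1lc3b and Map1lc3a were higher in HSC and 3 were not called. Gabarapl1, whose product sits on the autophagosome membrane (chromosome 6, 129533192 to 129542331) read 244, 236, 248 and 252 CPM in HSC and 123, 135, 137 and 129 in HPC. The groups stood far apart, and the spread within each fraction was small. The log2 change was 0.91 ± 0.08 (SE, edgeR adjusted p = 7.6e-07), 1.87-fold.

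Map1lc3b, whose product is widely used to follow autophagy (chromosome 8, 121590468 to 121598047), had 539, 493, 565 and 588 CPM in HSC against 358, 413, 370.0 and 355 in HPC. All 4 HSC libraries were above all 4 HPC libraries. It rose by 0.55 ± 0.09 on the log2 scale (SE, edgeR adjusted p = 0.00030), 1.46-fold. Map1lc3a, less abundant (chromosome 2, 155276364 to 155278073), had 20.3, 17.8, 13.2 and 18.5 CPM in HSC and 5.44, 6.31, 8.02 and 9.06 in HPC. Here too the groups stood apart, by 2.42-fold, and the log2 difference was 1.27 ± 0.21 (SE, edgeR adjusted p = 0.00023).

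The remaining 3 genes of the group were not called by edgeR, while DESeq2 called Gabarap (adjusted p = 0.047) and Sqstm1 (adjusted p = 0.036), and voom called Sqstm1 (adjusted p = 0.024). Gabarap had 205, 168, 164 and 203 CPM in HSC and 151, 152, 147 and 168 in HPC. The lowest HSC library and the highest HPC library overlapped, and the log2 change of 0.26 ± 0.10 (SE) had an edgeR adjusted p of 0.056. Gabarap also lies on an alternate locus and had no uniquely placed reads, so its value is uncertain. Gabarapl2 had 96.8, 83.5, 85.3 and 100.4 CPM in HSC and 83.1, 89.3, 84.5 and 96.0 in HPC. These overlapped almost fully (log2 difference 0.05 ± 0.10 SE, edgeR adjusted p = 0.72). Of its reads 59.2% were uniquely placed. Sqstm1, the p62 receptor that carries ubiquitinated cargo, had 92.1 to 95.1 CPM in HSC and 73.3 to 88.3 in HPC, apart but not called (edgeR adjusted p = 0.051).

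**Figure D3:**
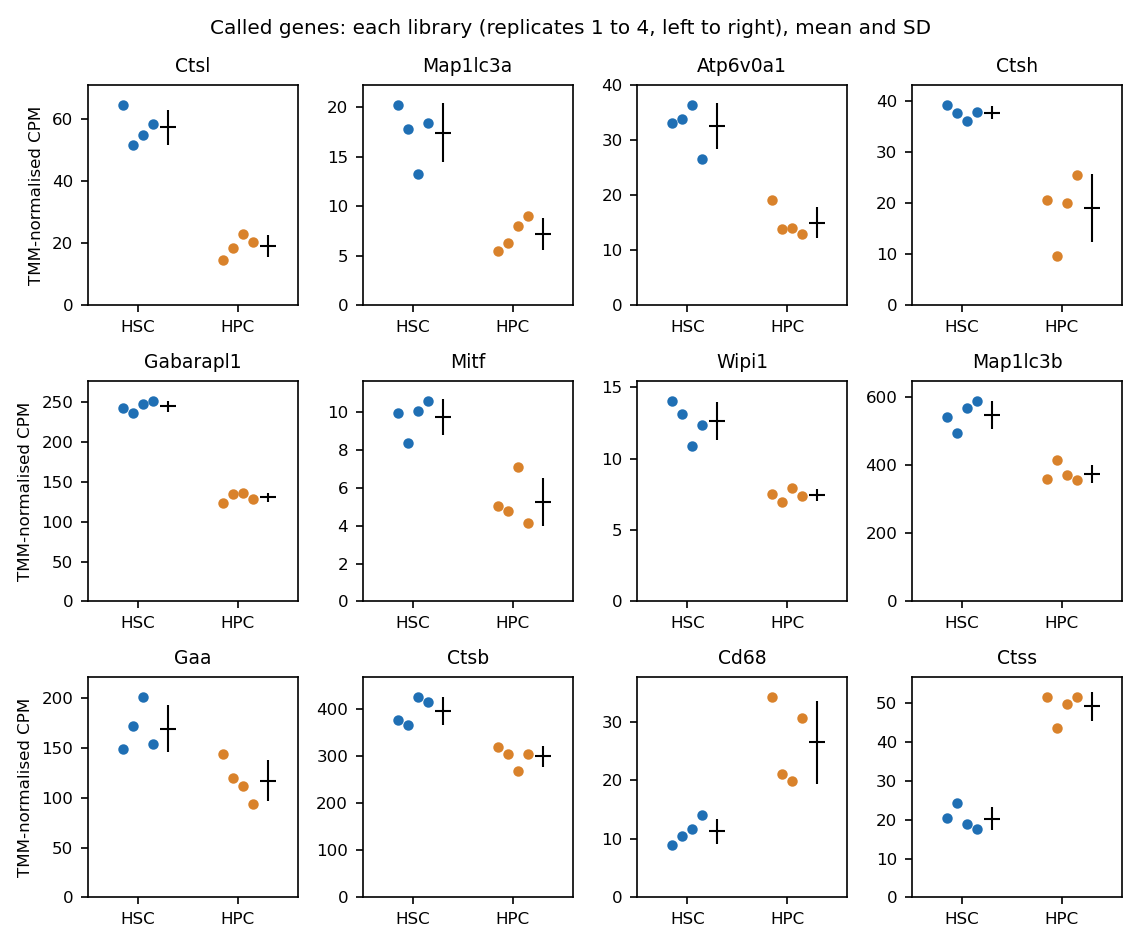
TMM-normalised CPM (vertical axes from 0, each panel on its own scale) of the 12 called genes, with points for libraries 1 to 4 from left to right and a cross beside them for the mean and SD. The fractions do not overlap in any of the 12 panels, and HPC lies above HSC in Cd68 and Ctss alone.

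Of the MiT/TFE factors, Mitf was called. Mitf, also known as the master regulator of the melanocyte lineage (chromosome 6, 97807002 to 98021360), had 9.96, 8.36, 10.1 and 10.6 CPM in HSC and 5.02, 4.77, 7.08 and 4.14 in HPC. The groups did not overlap, with HPC library 3 nearest to HSC. It rose by 0.89 ± 0.23 on the log2 scale (SE, edgeR adjusted p = 0.0070), 1.86-fold. Tfe3 had 29.5, 32.9, 40.7 and 40.2 CPM in HSC and 31.1, 33.8, 30.5 and 21.7 in HPC, and Tfeb had 21.2, 27.2, 27.8 and 23.7 against 22.2, 21.8, 27.4 and 19.8. Both overlapped between fractions (edgeR adjusted p = 0.18 for Tfe3 and 0.53 for Tfeb). The interval of Tfe3, -0.05 to 0.63 on the log2 scale, reached the highest bound of the uncalled genes, and 46.2% of its reads were uniquely placed.

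MiT/TFE factors are known to bind an E-box, and stretches of members' promoter windows that hold its letters are shown so that the matches can be seen in their sequence. The RefSeq promoter table (GRCm38.p6, 250 bases before to 50 after each start) held 30 of the 38 genes. It lacked Becn1, Ctsb, Map1lc3a, Atp6v1b2, Atg16l1, Atg12, Atp6v1h and Ctsh. The letters searched were the core CACGTG and the longer TCACGTGA, which contains the core. Both read the same on either strand. The core was found in 11 of 30 members, 36.7%, against 8.09% of the 27025 genes in the table and 11.7% of the 10245 tested genes with a window. The longer form was found in 6 of 30, 20%, against 1.12% of all genes in the table and 2.21% of the tested genes with a window. The members were chosen by name, and MiT/TFE factors are already known for switching on lysosomal genes. The members' higher shares could thus be foreseen and are not a result of these libraries. A RefSeq start can lie inside the gene as the files bound it, as for Ctsa, Ctsd, Ctsl, Atg3, Atg7 and Atp6v1a. Atg5 and Atg7 also held the core, 14 and 132 bases before the start, and are not printed, nor are the further copies in Ctsa and Ctsd. In the lines that follow, capitals mark the motif, and each run is 5′ to 3′ on the gene's strand.
Lamp1 (chr8:13159091-13159160, plus strand): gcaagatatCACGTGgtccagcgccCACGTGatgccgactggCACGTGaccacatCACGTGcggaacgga
Mcoln1 (chr8:3500439-3500498, plus strand): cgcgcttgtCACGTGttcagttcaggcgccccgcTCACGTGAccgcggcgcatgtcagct
Atg3 (chr16:45158726-45158775, plus strand): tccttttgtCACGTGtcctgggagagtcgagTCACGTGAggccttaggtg
Ctsd (chr7:142387901-142387940, minus strand): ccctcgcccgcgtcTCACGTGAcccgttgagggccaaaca
Atp6v1a (chr16:44139366-44139405, minus strand): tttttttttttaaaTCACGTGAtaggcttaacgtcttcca
Ctsa (chr2:164833742-164833771, plus strand): tgaacaatgagcaaactgTCACGTGAtgca
Atp6v0d1 (chr8:105566054-105566083, minus strand, across the start): caggccctactgcggTCACGTGAgacgcgg
Gaa (chr11:119267808-119267847, plus strand): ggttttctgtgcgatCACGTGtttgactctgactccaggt
Ctsl (chr13:64370731-64370765, minus strand): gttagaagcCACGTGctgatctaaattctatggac

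Lamp1 held 4 copies of the core within 70 bases of its start, the first bases lying 61, 45, 28 and 15 bases before it. Its transcript had a log2 change of 0.08 ± 0.09 (SE). Of the 11 genes with the core, 2 were called, Ctsl and Gaa, both higher in HSC. Among all 1200 tested genes with the core, 214 were higher and 207 lower, or 35.1%. None of the 6 with the longer form (Atg3, Atp6v0d1, Atp6v1a, Ctsa, Ctsd and Mcoln1) was called by edgeR, and their median log2 change was 0.14. Of these 6, 4 had an unadjusted p under 0.05, DESeq2 called Atp6v0d1, and voom called Atp6v1a and Ctsa. Across all 226 tested genes with the longer form, 35 were higher and 28 lower, or 27.9%. A match of letters is a description of the window and does not show binding, and the promoters were not tested against the changes.

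**Figure D4:**
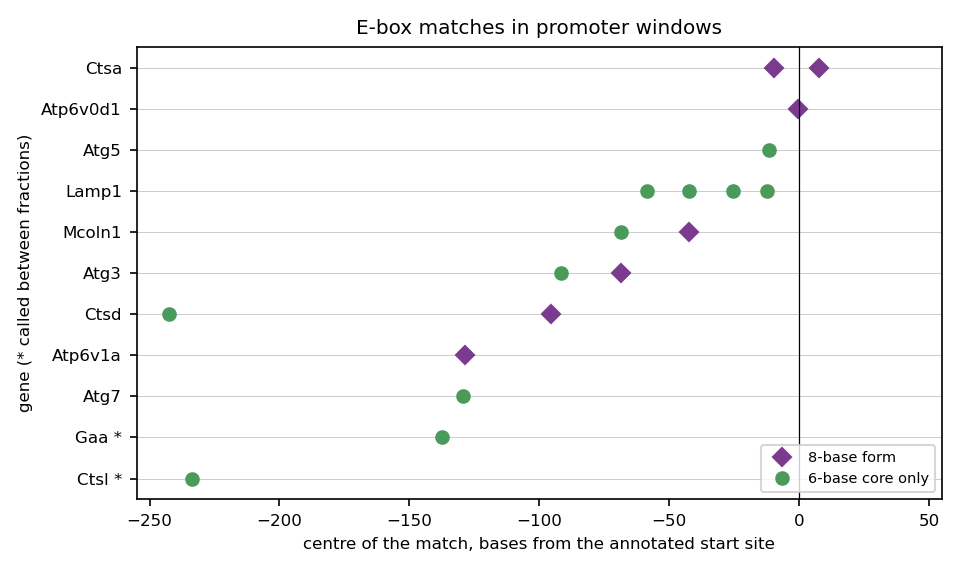
Centre of each CACGTG in the promoter windows of the 11 members that hold it, in bases from the RefSeq start (vertical line at 0), with diamonds for copies that are part of TCACGTGA and circles for the core alone. Lamp1 has 4 circles before its start, the most copies of any member, and asterisks mark the 2 called genes, Gaa and Ctsl.

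Of the lysosomal membrane genes, Cd68 was lower in HSC and the other 3 were not called. Cd68 encodes a glycoprotein typical of macrophage lysosomes (chromosome 11, 69664213 to 69666170). It had 8.88, 10.6, 11.7 and 14.0 CPM in HSC and 34.3, 21.1, 19.8 and 30.6 in HPC. All HSC libraries lay below all HPC libraries, and HPC libraries 1 and 4 were the highest. It fell by 1.22 on the log2 scale (SE 0.21, edgeR adjusted p = 0.00028) and was 2.34-fold lower.

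Of the other membrane genes, Lamp1 and Lamp2 moved little, and Mcoln1 had the highest log2 change of the 26 uncalled genes. Lamp1, the chief glycoprotein of the lysosomal membrane, had 246, 259.5, 249 and 234 CPM in HSC and 232, 207, 236 and 260.3 in HPC, with overlapping groups (edgeR adjusted p = 0.54, 95% interval -0.12 to 0.27 on the log2 scale). Lamp2, its relative, stood at 171 ± 22.4 CPM (SD, n = 4) in HSC and 169 ± 25.9 in HPC. Mcoln1, the lysosomal calcium channel, stood at 34.4 ± 2.54 and 27.5 ± 3.35, and the log2 difference was 0.32 ± 0.13 (SE, edgeR adjusted p = 0.065).

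The 8 cathepsins changed in both directions: Ctsl, Ctsh and Ctsb were higher in HSC, Ctss was lower, and 4 were not called. Ctsl, a cysteine protease of lysosomes (chromosome 13, 64361890 to 64370748), had 64.7, 51.6, 54.9 and 58.3 CPM in HSC and 14.6, 18.3, 22.8 and 20.6 in HPC. Every HSC library had more than 2-fold the CPM of any HPC library. The log2 change, 1.59 ± 0.15 (SE, edgeR adjusted p = 1.0e-06), was the highest of the 38, a 3.0-fold difference.

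Ctss, a cysteine protease best known for cutting the invariant chain in antigen-presenting cells (chromosome 3, 95526786 to 95556405), had 20.5, 24.4, 18.9 and 17.6 CPM in HSC and 51.6, 43.7, 49.9 and 51.8 in HPC. The groups stood well apart, with HPC above. It fell by 1.28 on the log2 scale (SE 0.13, edgeR adjusted p = 3.5e-06) and was 2.42-fold lower, the lowest change of the set.

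Ctsh, an aminopeptidase (chromosome 9, 90054267 to 90076095), had 39.3, 37.7, 36.1 and 37.9 CPM in HSC and 20.7, 9.69, 20.1 and 25.5 in HPC. HPC library 2 was the lowest, and the HSC libraries were tightly grouped. It rose by 0.99 ± 0.22 on the log2 scale (SE, edgeR adjusted p = 0.0024), 1.99-fold. Ctsb, the most abundant cathepsin by CPM in HSC (chromosome 14, 63122462 to 63145923), had 376, 366, 426 and 415 CPM in HSC and 319, 304, 268 and 305 in HPC. The groups did not overlap, at 1.32-fold (log2 change 0.40 ± 0.09 SE, edgeR adjusted p = 0.0029).

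Ctsd, the main aspartic protease of lysosomes, had 281, 277, 326 and 303 CPM in HSC and 361, 310.4, 321 and 295 in HPC. The libraries overlapped, and the 95% interval of its log2 change ran from -0.32 to 0.09 (edgeR adjusted p = 0.37). Ctsa, Ctsc and Ctsz had log2 changes of -0.21, 0.05 and -0.14. Ctsa, which also protects other lysosomal enzymes, lay at 135 to 150.1 CPM in HSC and 154 to 174 in HPC, apart but not called (edgeR adjusted p = 0.066).

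As a share of the summed RPKM of the 8 cathepsins, Ctsl took 3.93 ± 0.46% (SD, n = 4) in HSC and 1.31 ± 0.31% in HPC, and Ctss 3.44 ± 0.67% and 8.20 ± 0.63%. Ctsd held the largest share in both fractions, 36.9 ± 1.46% and 39.6 ± 2.04%. The summed CPM of the 8 genes overlapped between fractions, from 1106 to 1200.4 in HSC and from 1034 to 1180.0 in HPC.

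Markers of macrophages and monocytes were measured beside Cd68 and Ctss, since these cells make both. Of the 18 markers 15 were tested, 3 were lower in HSC, none was higher and 12 were not called by edgeR. The share called, 20%, lay below the 37.1% of all genes tested, of which 17.6% were lower. The smallest adjusted p among the positive changes was 0.23, for Cd14. The lower ones were Itgam, the CD11b integrin chain, at 1.88 ± 0.714 CPM (SD, n = 4) in HSC and 38.3 ± 6.11 in HPC, Csf1r, the receptor for macrophage colony-stimulating factor, at 4.02 ± 2.89 and 25.4 ± 7.41, and Cx3cr1, a chemokine receptor, at 1.45 ± 0.490 and 6.26 ± 1.66. Without HSC library 2, the Csf1r log2 change went from -2.66 to -3.27. Lyz2, the most abundant marker, stood at 191 ± 32.9 and 262 ± 72.5 and was not called (edgeR adjusted p = 0.062). The summed level of the 18 was 251, 378, 255 and 239 CPM in HSC libraries 1 to 4 and 536, 302, 423 and 564 in HPC libraries 1 to 4. The groups overlapped, and HPC libraries 1 and 4, the highest for this sum, were also the highest for Cd68. Within HSC the order differed. The sum was highest in library 2, where Cd68 stood at 10.6 CPM, and lowest in library 4, where Cd68 was highest at 14.0 CPM. In HPC library 4 the largest parts of the sum were Lyz2 at 334 CPM and Ly6c2 at 114, neither called by edgeR. The 3 called markers were all highest in HPC library 1. In HPC library 4, however, Itgam was the lowest of the HPC libraries at 33.4 CPM, with Csf1r at 21.2 and Cx3cr1 at 5.19. No marker of the list was at 0 in all 8 libraries. The part of such cells in the Cd68 and Ctss results was not tested.

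Both glycosidases are enzymes whose loss causes storage disease. Gaa, the acid glucosidase that degrades glycogen (chromosome 11, 119267963 to 119285458), had 149, 173, 202 and 155 CPM in HSC and 144, 119.6, 112 and 94.1 in HPC. The lowest HSC library was 149 and the highest HPC library 144, so the groups stood apart by little. It rose by 0.53 ± 0.13 on the log2 scale (SE, edgeR adjusted p = 0.0051), 1.45-fold. Hexa, a subunit of hexosaminidase, had 86.2, 97.5, 86.6 and 89.0 CPM in HSC and 123, 93.8, 81.8 and 113 in HPC, and was not called (edgeR adjusted p = 0.24).

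Of 5 V-ATPase subunits, edgeR called Atp6v0a1 alone, and DESeq2 also called Atp6v0d1 (adjusted p = 0.046) and voom Atp6v1a (adjusted p = 0.018). Atp6v0a1 is the large subunit of the membrane sector that shapes the proton path (chromosome 11, 101009447 to 101063719). It had 33.1, 33.9, 36.5 and 26.7 CPM in HSC and 19.2, 13.9, 14.0 and 13.0 in HPC. The lowest HSC library lay above HPC library 1, which stood above the other HPC libraries. The log2 change was 1.11 ± 0.16 (SE, edgeR adjusted p = 7.3e-05), 2.17-fold.

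Atp6v1b2, an ATP-binding subunit of the catalytic sector and the most abundant of the uncalled subunits by CPM, had 133, 168, 192 and 179 CPM in HSC and 146, 138, 139 and 134 in HPC. HSC library 1 lay below all HPC libraries and the other HSC libraries lay above them, with an edgeR adjusted p of 0.065. Atp6v0d1, Atp6v1a and Atp6v1h had log2 changes of 0.20, 0.28 and -0.10, and none passed the test (edgeR adjusted p = 0.068, 0.081 and 0.54). The summed CPM of the 5 subunits was 475 to 541 in HSC and 414 to 470.0 in HPC.

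Among the 26 uncalled genes the log2 changes ran from -0.42 to 0.32, 17 of them positive. For 19 of them the whole 95% interval lay within 0.5 of 0 on the log2 scale. Besides Ulk2, leaving out 1 library brought a call in edgeR for Atg12 (HPC library 1, adjusted p = 0.041), Gabarap (HSC library 3, 0.026, or HPC library 4, 0.048), Sqstm1 (HPC library 3, 0.027) and Mcoln1 (HPC library 2, 0.043). It did so also for Ctsa (HSC library 4, adjusted p = 0.038), Atp6v1a (HSC library 4, 0.029, or HPC library 3, 0.027) and Atp6v1b2 (HSC library 1, 0.0097) in edgeR. A further measure exists in the reads within introns, which were counted apart from exon reads in the same libraries. Such reads are often taken to come from transcripts not yet spliced, but their origin was not measured here. All 38 genes were tested on intron reads, 6 were higher in HSC and none was lower (edgeR; 9 had an unadjusted p under 0.05, of which Cd68 alone was lower), against 21.0% called among all 12710 genes tested on introns. All 12 genes called on exon reads had the same sign on intron reads, and 5 were called by both: Mitf, Gabarapl1, Ctsh, Wipi1 and Atp6v0a1. The share with the same sign over all genes called on exon reads is not given here. The other gene higher on intron reads, Atp6v1a, had an intron log2 change of 0.46 ± 0.16 (SE, edgeR adjusted p = 0.0498). Mitf had an intron log2 change of 1.06 ± 0.21 (SE, edgeR adjusted p = 0.0018), and Gabarapl1 of 0.85 ± 0.22 (SE, edgeR adjusted p = 0.011). Map1lc3b differed from these: with 1991 intron reads in HSC and 1940 in HPC, its intron log2 change was 0.02 ± 0.18 (SE, edgeR adjusted p = 0.95), and its exon change was 0.55. The difference between the exon and intron changes was not tested. Ctsl had 128 and 66 intron reads and an intron log2 change of 0.89 ± 0.57 (SE), and Map1lc3a had 50 and 41 reads and a change of 0.24 ± 0.63 (SE), so that neither differed detectably at this depth.

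The wider pathway was read from 9 lists of 213 symbols besides the members. Of 204 tested, 37 were higher in HSC, 32 lower and 135 not called, 33.8% called against 37.1% of all genes tested, with a median log2 change of 0.06. With upper quartile scaling, which moved all genes upward as given above, the counts were 47 and 20. Of 19 other genes for initiation and membrane lipids, 3 were higher and 3 lower. Vmp1, needed to form the autophagosome, stood at 167 ± 14.0 CPM (SD, n = 4) in HSC and 105 ± 8.71 in HPC, and Atg9a, the membrane protein that delivers lipid, at 62.9 ± 14.3 and 41.0 ± 4.20. Uvrag, a subunit of a lipid kinase complex, was lower, at 52.0 ± 3.90 and 76.0 ± 9.73. Of 7 further conjugation genes, Tecpr1 alone was called, at 35.0 ± 2.92 and 26.5 ± 5.24 (edgeR adjusted p = 0.0499, and 0.090 to 0.14 when HSC library 1, 2 or 3 or HPC library 2 or 4 was left out).

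Cargo receptors held 7 higher genes of 16 and 1 lower. Optn, a receptor in the clearing of mitochondria, stood at 42.9 ± 7.68 CPM (SD, n = 4) in HSC and 13.1 ± 0.690 in HPC, 3.28-fold (edgeR adjusted p = 5.8e-07). Bnip3l, a mitochondrial receptor, stood at 274 ± 15.9 and 199 ± 17.1, and Wdfy3, a scaffold for aggregates, at 55.9 ± 6.88 and 34.8 ± 5.50. On uniquely placed exon reads the log2 change of Wdfy3 went from 0.68 to 0.20 and its call was lost (edgeR adjusted p = 0.70). Of 16 genes for fusion and tethering, 3 were higher and 1 lower. Arl8a, which moves lysosomes, stood at 33.6 ± 4.12 and 21.8 ± 2.87, and Vps18, of the HOPS tether, was lower at 36.0 ± 3.76 and 53.0 ± 7.43. Vamp8, a fusion SNARE, stood at 436 ± 59.3 and 348 ± 40.2 (edgeR adjusted p = 0.038, and 0.061 to 0.13 when HSC library 1 or 4 or HPC library 1 or 3 was left out).

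The hydrolase list held 9 higher and 12 lower genes of 47 tested. Ctse, an aspartic protease outside the 8 cathepsins above, stood at 131 ± 14.0 CPM (SD, n = 4) in HSC and 33.7 ± 3.47 in HPC, 3.89-fold (edgeR adjusted p = 9.9e-09). On gene reads the Ctse log2 change was 1.09 in place of 1.96. Ctsf stood at 70.3 ± 4.79 and 24.9 ± 1.24, 2.82-fold. Gm2a, the activator of ganglioside breakdown, was lower, at 179.9 ± 6.20 and 466 ± 33.6, 2.59-fold. Of 29 other membrane genes tested, 5 were higher and 5 lower. Cd63, a tetraspanin of late endosomes, stood at 418 ± 42.5 and 192 ± 22.9, and Cln3, a membrane protein lost in a storage disease, at 67.1 ± 4.26 and 42.3 ± 4.48. Laptm5, a lysosomal protein of blood cells, was lower, at 646 ± 24.8 and 1059.7 ± 51.0, and on uniquely placed exon reads it was not called (edgeR adjusted p = 0.079).

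Other V-ATPase subunits and partners, 17 tested, had 3 higher and 3 lower. Dmxl2, a factor in the assembly of the pump, stood at 9.55 ± 3.07 CPM (SD, n = 4) in HSC and 3.83 ± 0.623 in HPC, and the subunit Atp6v1g2 at 14.0 ± 1.47 and 8.79 ± 1.62. On uniquely placed exon reads Atp6v1g2 was not called (log2 change 1.04, edgeR adjusted p = 0.15). Atp6ap2, an accessory protein, was lower, at 81.6 ± 6.34 and 103 ± 7.16, and lost its call with upper quartile scaling (edgeR adjusted p = 0.055). Enzyme sorting, 17 tested, had 1 higher and 2 lower. M6pr, a mannose 6-phosphate receptor, stood at 378 ± 14.1 and 306 ± 10.2 but was not called on gene reads (edgeR adjusted p = 0.075), and Gnptab, the enzyme that makes the mannose 6-phosphate tag, was lower at 47.8 ± 11.4 and 90.0 ± 10.6. Ap1m1, an adaptor subunit, stood at 163 ± 8.01 and 191 ± 6.89 (edgeR adjusted p = 0.046, and 0.058 to 0.12 when HSC library 1, 2 or 3 or HPC library 2, 3 or 4 was left out). The list for mTORC1, the kinase that represses autophagy when nutrients are ample, and its regulators had 5 higher and 5 lower of 36 tested. Foxo1, a transcription factor for autophagy genes, stood at 42.9 ± 3.97 and 22.3 ± 1.66, and Deptor, an mTOR inhibitor, at 70.0 ± 7.29 and 41.2 ± 3.37. Rptor, the defining subunit of mTORC1, was lower, at 21.5 ± 4.38 and 42.2 ± 3.59.

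**Figure D5:**
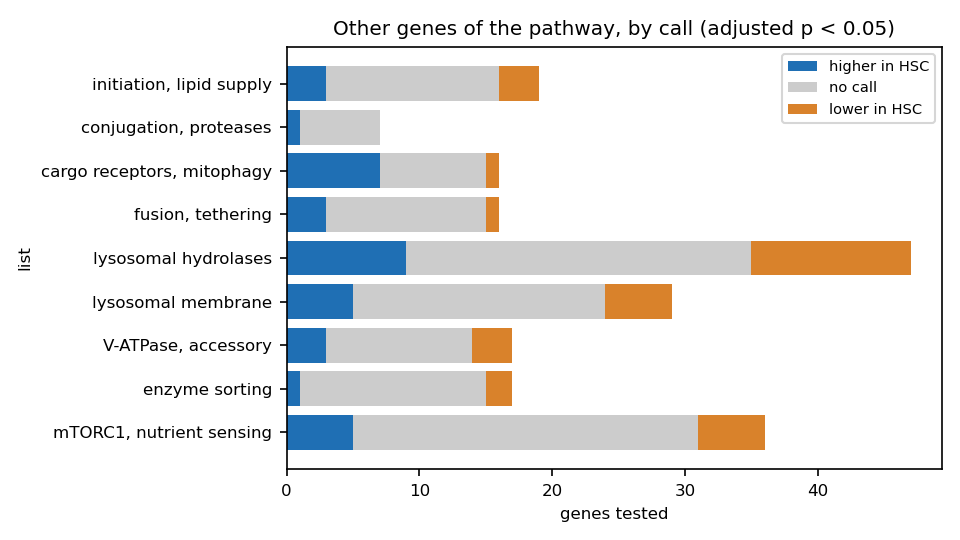
Number of tested genes (horizontal axis) in each of the 9 pathway lists, divided into genes higher in HSC, not called and lower in HSC. Cargo receptors have 7 higher and 1 lower of 16, hydrolases 9 and 12 of 47, and the uncalled part is the largest in 8 lists and as large as the called part in cargo receptors.

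Markers of other cells that a marrow sort could hold differed between the fractions for some cell types and overlapped for others. The summed markers of mast cells, basophils and eosinophils were 105 CPM in HSC library 3 and 9.36 to 17.9 in the other HSC libraries. In HPC they were 162 to 268. Of 9 tested, 6 were lower in HSC and none higher by edgeR, 66.7% called against 37.1% of all genes tested. Those of T and NK cells were 91.2 to 118 CPM in HSC and 295 to 383 in HPC. Of 8 tested, however, 5 were higher in HSC and 1 lower (75% called), with a median log2 change of 1.77. The sum follows that 1 gene, Nkg7, a granule protein gene, at 44.6 ± 8.40 CPM (SD, n = 4) in HSC and 330.4 ± 40.8 in HPC. Red cell markers summed to 462 CPM in HSC library 1, 183 to 231 in the other HSC libraries and 40.9 to 161 in HPC. Of 7 tested, 3 were higher in HSC and none lower by edgeR (42.9% called). Hba-a1 alone stood at 105 ± 56.2 CPM in HSC and 26.9 ± 21.9 in HPC. Stromal, osteoclast and endothelial markers summed to 53.3 to 69.5 CPM in HSC and 26.3 to 36.6 in HPC. Of 6 tested, 4 were higher in HSC and none lower by edgeR (66.7% called). Emcn alone stood at 29.4 ± 2.21 CPM in HSC and 20.8 ± 4.08 in HPC. Neutrophil markers, at 8.81 to 17.9 CPM in HSC and 9.36 to 30.8 in HPC, overlapped. So did dendritic cell markers, at 104 to 127 and 114 to 138, and platelet markers, at 198 to 271 and 168 to 211. By edgeR 2 dendritic markers of 8 were higher in HSC and 2 lower (50% called), and 4 platelet markers of 6 higher and 1 lower (83.3%). Of 7 neutrophil markers tested, 1 was higher and 1 lower (28.6%). B cell markers stood barely apart, at 64.6 to 81.9 CPM in HSC and 53.5 to 64.2 in HPC. Of 6 tested, 4 were higher in HSC and none lower by edgeR (66.7% called). The part of all these cells in the lysosome and autophagy results was not tested.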

How the data were processed

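RNA of 4 HSC and 4 HPC libraries was grouped by title. The submitters' processing notes name genome build mm10. Which aligner and counter made the tables, and whether strand was used, is not given in the sources used here, so overlapping and antisense genes cannot be separated. Per the file headers, each deposited count is the number of exon, intron or gene reads of a row. The deposited TPM and RPKM were scaled by the authors. The TPM served only to check the order of levels in HSC, where its first 10 members were the same 10, and the RPKM printed here were computed from the counts and exon lengths.

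Exon reads were summed per gene ID, since genes on alternate loci fill several rows. The summed counts went into edgeR 4.0.16 under R 4.3.3 (filterByExpr, TMM, quasi-likelihood F test, no covariate, Benjamini-Hochberg over 12751 genes). Standard errors are log2 changes over the root of F, and the biological coefficient of variation was 18.3%. Alternatives included DESeq2 1.42.0 and voom of limma 3.58.1.

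The members, lists and rules were chosen with earlier results of these data known. Called members and the uncalled member with the highest mean CPM of each role were given for every library, the MiT/TFE factors were named, and in each pathway list up to 3 called genes with the smallest adjusted p and a mean of at least 5 CPM were named. Genes of the marker lists were named by hand after their values were seen. Protein sequences were not used here, and a result on 1 withheld item is not reported here.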

Additional observations from a re-analysis of the deposited data

Results flagged for a closer look

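In 4 of 76 sets of 4 libraries (38 genes in 2 fractions), 1 library stood apart from the other 3 by a gap beyond Dixon's 95% critical value. Chance flags about 5% of such sets. Ctsa in HSC library 4 was at 150 CPM, the others at 135 to 137. Ctsc in HPC library 2 was at 77.9 CPM, the others at 98.5 to 99.8. Atp6v0a1 in HPC library 1 was at 19.2 CPM, the others at 13.0 to 14.0. Atp6v0d1 in HPC library 2 was at 98.4 CPM, the others at 104 to 105.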

How the results depend on the processing

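In 21 other settings of the edgeR analysis or its tools, 6 of the 12 called genes kept the call in all, and the other 6 (Ctsb, Ctsh, Gaa, Map1lc3b, Mitf and Wipi1) lost it only when tested against a fold of 1.5, which asks for a larger change. The members higher in HSC numbered 10, but 16 with upper quartile scaling, 4 against a fold of 1.5, and 10 to 12 when 1 library was left out. Those lower numbered 2, and 2 to 3 when 1 library was left out. Pathway genes higher numbered 37, but 8 against a fold of 1.5, and 30 to 38 when 1 library was left out. Pathway genes lower numbered 32, but 20 with upper quartile scaling, 8 against a fold of 1.5, 17 at a threshold of 0.01, and 22 to 31 when 1 library was left out. The cause of the scaling differences was not tested. Of the 26 uncalled members, 9 gained a call in some setting and 17 in none. With only the part of the window before the start, 10 members held CACGTG and 5 TCACGTGA.

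Of the uncalled genes 7 changed sign somewhere, 6 of them near 0 and Ulk2 from -0.42. On gene reads the log2 change of Atg16l1 was -0.17, of Lamp2 -0.0083, of Ulk2 0.0036 and of Wipi2 0.0022, and with upper quartile scaling that of Wipi2 was 0.054. With 1 library left out in turn, the log2 change ran from -0.032 to 0.078 for Atg16l1, from -0.0084 to 0.15 for Atg3, from -0.028 to 0.093 for Ctsc, from -0.00066 to 0.094 for Gabarapl2, from -0.066 to 0.10 for Lamp2 and from -0.099 to 0.026 for Wipi2.

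The libraries share only replicate numbers. Deviations of same-numbered libraries correlated at -0.0124, -0.1177, 0.0859 and 0.1464, so the numbers were not taken to pair them, and of the HSC libraries only numbers 3 and 4 matched their own number best. With the replicate block, 14 members were higher and 3 lower, and 40 pathway genes were higher and 36 lower.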
